A study of Homo sapiens with 12 samples.

Results

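Integrin and laminin subunit genes were followed in 12 RNA-seq libraries of human cancer cell lines. The members are every gene of the count table whose symbol names an integrin alpha subunit, an integrin beta subunit or a laminin chain. They number 38 of 57500 genes, with 18 integrin alpha genes, 8 integrin beta genes, 5 laminin alpha genes, 4 laminin beta genes and 3 laminin gamma genes. SW480 and SW620 are established colorectal cancer lines from the primary tumour and from a metastatic site of the same patient, both untreated and grown in DMEM with 10% serum. PEO4 is an established ovarian cancer line, grown in RPMI with the same share of serum and kept either in control medium or with 10 ng/mL of recombinant human TGF-β for 6 days. Each of the 4 groups has 3 biological replicates, and total RNA was sequenced after depletion of ribosomal RNA. The design asks how SW620 differs from SW480 and how TGF-β changes PEO4. Each condition is represented by a single cell line, so a difference between SW480 and SW620 is a difference between 2 cultured lines.

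Integrins are cell-surface receptors made of an alpha and a beta subunit, and the pair decides which matrix protein the cell can hold. Alpha 3, alpha 6 and alpha 7 bind laminins, alpha 1, 2, 10 and 11 bind collagens, and alpha 5, alpha 8, alpha IIb and alpha V bind RGD motifs such as that of fibronectin. Alpha 4 and alpha 9 bind other ligands, and alpha D, E, L, M and X belong mainly to leukocytes. Laminins are the main glycoproteins of the basement membrane under epithelia, and each is a trimer of an alpha, a beta and a gamma chain that is named by its chain numbers. TGF-β is secreted in a latent complex, and alpha V integrins with beta 6 or beta 8 are known to release it.

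The libraries held 14.5 to 22.0 times 1000000 counts assigned to genes. Replicates of a group differed by more than counting noise, with a chi-square per degree of freedom of 11.3 to 70.8 over the 12 pairs. Levels are given as CPM, counts per 1000000 counts of the TMM-scaled library. Levels of different genes are compared only as CPM per kb of exon. A count of 0 allows up to 3 counts, which is 0.136 to 0.206 CPM depending on the library and covers counting error only. CDX2, an intestinal transcription factor, was at 18.4 ± 2.57 CPM in SW480 and 18.7 ± 4.44 in SW620 (SD, n = 3). Other colorectal markers were less even between SW480 and SW620. VIL1 was at 25.6 ± 9.28 CPM in SW480 and 211 ± 49.5 in SW620, and CDH17 at 0.534 ± 0.328 and 3.37 ± 1.33. GPA33 was low in both, at 0.457 ± 0.183 and 0.521 ± 0.777 CPM. PAX8, a marker of Müllerian epithelium, was at 558 ± 18.2 CPM in PEO4 control and 574 ± 55.1 with TGF-β (SD, n = 3), and at 43.4 and 46.6 CPM in SW480 and SW620. Not all ovarian and Müllerian markers followed PAX8. WT1 was at 217 ± 16.5 CPM in PEO4 control and 158 ± 8.77 with TGF-β, and at 4.13 and 22.1 CPM in SW480 and SW620. SOX17 was at 1.6 ± 0.203 CPM in PEO4 control and 1.8 ± 0.441 with TGF-β, and at 2.53 and 3.08 CPM in SW480 and SW620.

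SW620 replicate 3 stands apart. Over 37 genes that are high in PEO4 and nearly silent in the other SW libraries, it held 329 counts, or 1.13% of their PEO4 level against 0.209% in the other SW libraries. In the other 5 SW libraries the excess was -0.145% to 0.333%, each over its own set of 8 to 12 genes with 7 to 29 counts. Those sets leave out genes with more than 10 counts in SW620 replicate 3, so the values are not over like genes. Over its 37 genes, the excess in SW620 replicate 3 was 0.916%. At that rate PEO4-like reads would make up 388 of its 985 ITGA3 counts (39.4%). The same sum gives 19.1 of 91 ITGB2 counts (21.0%) and 60.6 of 404 ITGB8 counts (15%), 6.38% for LAMA5 and 5.53% for LAMA3. The source of these reads was not tested. Leukocyte markers were also highest in that library, with PTPRC, which encodes the pan-leukocyte protein CD45, at 4, 50 and 108 counts in SW620 replicates 1, 2 and 3.

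In every group a few members carried most of the integrin and laminin mRNA. Members with a mean of at least 1 CPM numbered 27 in SW480, 26 in SW620 and 32 in each PEO4 group. Those with at least 100 CPM numbered 12 in SW480, 6 in SW620, 12 in untreated PEO4 and 13 in PEO4 with TGF-β. ITGA8 had 0 counts in all 12 libraries, and LAMB4 had at most 5 in any.

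**Figure D1:**
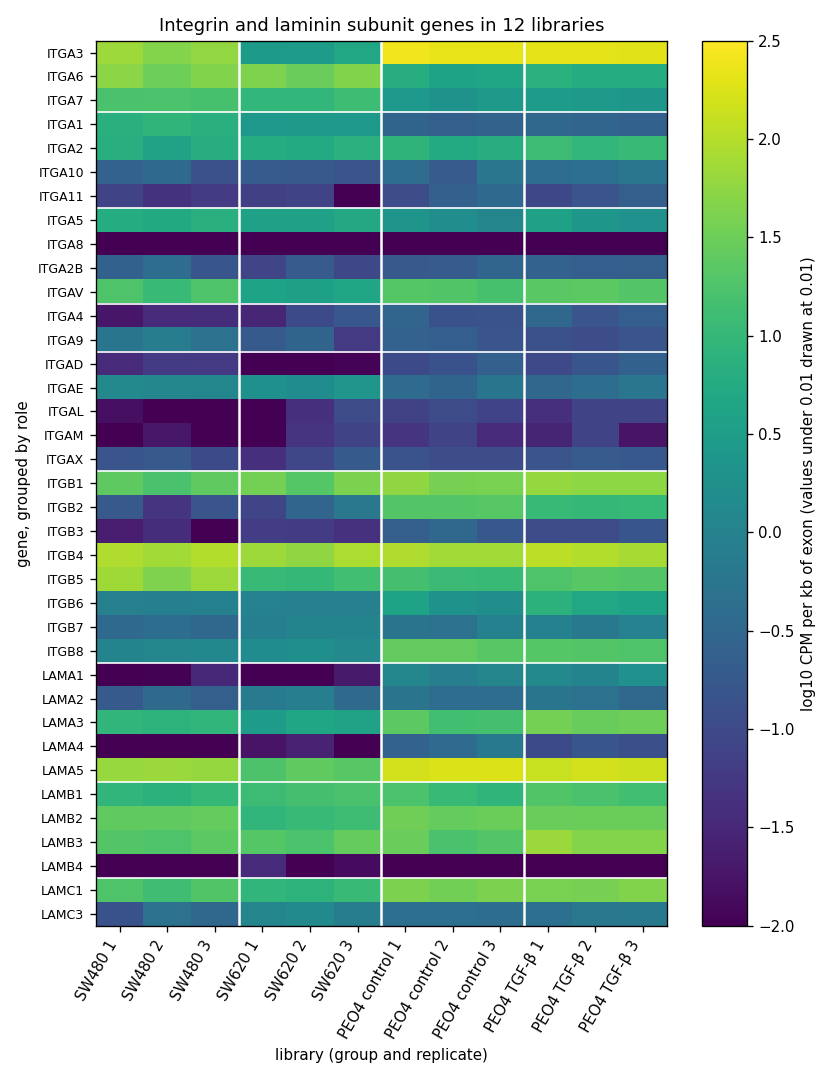
Level of the genes (rows, grouped by role) in the 12 libraries (columns), as log10 CPM per kb of exon, with values under 0.01 drawn at 0.01. ITGA3 and LAMA5 are the brightest alpha rows in PEO4, ITGA3 is dark in SW620 against SW480, and ITGA8 and LAMB4 are at or near the bottom of the scale throughout.

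Among alpha subunits, ITGA3 ranked first in SW480 with 37.3% ± 1.24 of the summed alpha CPM per kb (SD, n = 3), followed by ITGA6 with 27.3% ± 2.33. ITGA7 and ITGAV followed at 10.5% and 10.1% and changed places between libraries. In SW620, ITGA6 ranked first with 52.9% ± 4.52 and ITGA3 had 4.90% ± 0.987, behind ITGA7 with 14.7% ± 1.45. In PEO4, ITGA3 held 86.4% ± 0.415 in control medium and 81.3% ± 0.932 with TGF-β, and ITGAV was second in all 6 libraries. Thus the leading alpha subunit by mRNA binds laminin in each of the 4 groups.

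ITGB4, which pairs with alpha 6 in hemidesmosomes, ranked first among beta subunits in all 12 libraries. Its share of the summed beta CPM per kb was 50.9% ± 3.44 in SW480, 59.8% ± 2.02 in SW620, 43.4% ± 0.126 in PEO4 control and 45.6% ± 2.78 with TGF-β (SD, n = 3). ITGB5, a partner of alpha V, was second in SW480 with 34.9% ± 3.14 and came behind ITGB1 in SW620 with 9.84% ± 0.946. ITGB1, the most widely shared beta subunit, was second in the other 3 groups. ITGB8 and ITGB2, the beta subunit of leukocyte integrins, held 13.3% ± 1.36 and 11.1% ± 1.79 in PEO4 control and were not separated in rank, while ITGB2 held 0.0704% in SW480.

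**Figure D2:**
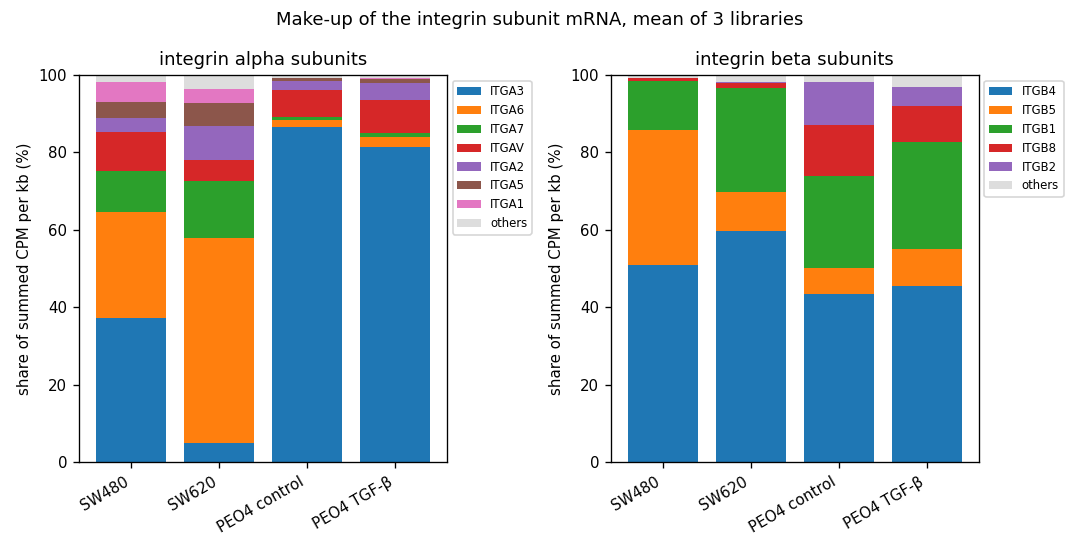
Share of the summed CPM per kb (%) that each integrin alpha subunit (left) and beta subunit (right) holds, as the mean of the 3 libraries of each group, with members that stay under 4% in every group pooled as others. ITGA3 falls from 37.3% in SW480 to 4.90% in SW620 and fills over 80% of the bar in both PEO4 groups.

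LAMA5, the alpha chain of laminin-511, was the leading laminin alpha chain in all 12 libraries, with 80.8% to 89.8% of the summed alpha chain CPM per kb as group means. LAMA3, the alpha chain of laminin-332, came second in every group. Among beta chains, LAMB2 led in SW480 (47.0% ± 2.18) and PEO4 control (48.1% ± 4.90), and LAMB3 led in SW620 (45.6% ± 5.96) and in PEO4 with TGF-β (52.9% ± 4.34; SD, n = 3). LAMA1 and LAMA4 were near absent from the SW lines, with at most 10 and 6 counts in a library.

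Between the colorectal lines, 29 of the 38 members passed edgeR's filter on low counts, and 16 of them had an adjusted p under 0.05. The share was 55.2%, against 30.5% of all 20941 genes tested. SW620 was lower than SW480 for 12 members (41.4%, against 17.0% of all genes) and higher for 4 (13.8%, against 13.5%). The median log2 fold change over the tested members was -0.472, against 0.0331 over all genes. Of 13 tested alpha integrins 6 fell and none rose by edgeR's adjusted p, and of 7 tested beta integrins 1 rose and 1 fell. Of 9 tested laminin chains 5 fell and 3 rose. At an unadjusted p under 0.05 the count was 17 of 29, against 40.7% of all genes, and ITGAE was the 1 higher alpha integrin among them, as it was with DESeq2. The members not tested for low counts were ITGA4, ITGA8, ITGAD, ITGAL, ITGAM, ITGB3, LAMA1, LAMA4 and LAMB4.

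ITGA3 (ENSG00000005884, GRCh38 chromosome 17, 50055968 to 50090481, plus strand) showed the greatest fall. Its alpha 3 subunit pairs with beta 1 as a receptor for laminin-332 and laminin-511. SW480 libraries were at 669, 454 and 568 CPM and SW620 libraries at 27.5, 30.1 and 47.4, so the groups were far apart. The log2 fold change was -4.04 ± 0.27 (SE, edgeR, adjusted p = 1.17e-05), 16.5-fold lower in SW620. Without SW620 replicate 3 it was -4.32 (adjusted p = 4.32e-06), and with the PEO4-like excess subtracted from that library it was also -4.32. The other laminin-binding alpha subunits moved less. ITGA7, known from muscle, went from 101, 105 and 97.7 CPM to 61.3, 60.2 and 81.9, with no overlap, a log2 fold change of -0.61 ± 0.17 and an adjusted p of 0.0214 (edgeR). ITGA6, which pairs with ITGB4, was at 339, 206 and 286 CPM in SW480 and 278, 190.4 and 288 in SW620, with overlapping groups and an adjusted p of 0.646.

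The alpha V receptor genes fell on both sides of the pair. ITGAV (chromosome 2, 186590065 to 186680901) was at 147, 92.5 and 147 CPM in SW480 and 32.9, 29.6 and 36.5 in SW620. Its log2 fold change was -1.99 ± 0.21 (edgeR, adjusted p = 0.000119). ITGB5 (chromosome 3, 124761948 to 124901418), which joins alpha V to bind vitronectin, was at 461, 279 and 441 CPM in SW480 and at 71.2, 63.9 and 89.9 in SW620. That is a log2 fold change of -2.42 ± 0.24 (edgeR, adjusted p = 8.83e-05), with every SW480 library above every SW620 library. The partners that release latent TGF-β were low in both lines. ITGB6 was at 4.26 ± 0.225 and 4.45 ± 0.225 CPM and ITGB8 at 17.8 ± 1.54 and 23.0 ± 3.51 in SW480 and SW620 (SD, n = 3), with adjusted p of 0.941 and 0.192 (edgeR). ITGB3, the other classical alpha V partner, was not tested, with at most 6 counts in a library. Other genes overlap 20.6% of the exon bases of ITGB6 and 51.6% of those of ITGB3, so the counts of both are uncertain.

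Of the collagen receptors, ITGA1 (chromosome 5, 52787896 to 52959210) was at 132, 166 and 134 CPM in SW480 and at 47.1, 48.0 and 46.3 in SW620. The log2 fold change was -1.65 ± 0.17 (edgeR, adjusted p = 0.000114), and the replicates did not overlap. A share of 6.9% of its exon bases lies under other genes, among them PELO. ITGA2 was at 45.0 ± 11.6 and 50.3 ± 7.46 CPM (SD, n = 3) and did not pass the test (adjusted p = 0.693), while ITGA10 and ITGA11 were near 1 CPM and also not past it. The platelet subunit ITGA2B was at 1.5 ± 0.69 and 0.704 ± 0.336 CPM (SD, n = 3; edgeR, adjusted p = 0.154). The fibronectin receptor subunit ITGA5 went from 46.1, 40.6 and 54.2 CPM to 28.3, 28.2 and 38.8, a log2 fold change of -0.60 ± 0.18 (edgeR, adjusted p = 0.0315). ITGA9, which binds tenascin-C, went from 4.66, 6.78 and 4.18 CPM to 1.57, 2.29 and 0.482, a log2 fold change of -1.88 ± 0.52 (edgeR, adjusted p = 0.0233). In both genes all SW480 values lay above all SW620 values.

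ITGB1 and ITGB4 did not pass the test. ITGB1 was at 144, 97.5 and 154 CPM in SW480 and 221, 126 and 245 in SW620, a log2 fold change of 0.55 ± 0.27 with an adjusted p of 0.160 (edgeR), and the groups overlapped. ITGB4 was at 591 ± 69.7 and 483 ± 108 CPM (SD, n = 3; adjusted p = 0.287). ITGB7, a leukocyte beta subunit that pairs with alpha 4 and alpha E, was the one beta subunit that rose. It was at 1.54, 1.91 and 1.5 CPM in SW480 and 3.97, 4.75 and 4.86 in SW620, a log2 fold change of 1.42 ± 0.30 (edgeR, adjusted p = 0.00669). ZNF740 covers 42.1% of the exon bases of ITGB7 from the opposite strand and was itself at 49.0 to 57.8 CPM in SW480 and 67.7 to 83.3 in SW620. The counting setting for strand is not given in the sources used here, so the ITGB7 counts are uncertain.

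Other leukocyte integrin genes were low in the SW lines. ITGB2 was at 1.24, 0.336 and 1.03 CPM in SW480 and 0.589, 1.96 and 4.38 in SW620, which overlap (log2 fold change 1.36 ± 0.72, edgeR, adjusted p = 0.192). In SW620 replicates 1, 2 and 3 the counts were 12, 36 and 91 for ITGB2, 5, 15 and 27 for ITGA4, 0, 5 and 15 for ITGAL and 0, 5 and 10 for ITGAM. Of 7 leukocyte markers, 6 exceeded 3 counts in a library of SW620, and 6 did so in SW480. The summed level of the 7 ran from 2.31 to 18.4 CPM over the 3 SW620 libraries, against 2.68 to 2.75 in SW480. The summed fibroblast markers were at 2.47 to 2.84 CPM in SW480 and 7.36 to 14.8 in SW620, most of it LUM, and the summed endothelial markers at 2.79 to 2.92 and 4.96 to 8.73. The part of these markers in the results was not tested. In bulk RNA a change in the share of cells that express a gene and a change per cell cannot be told apart. ITGAE, the alpha E subunit that binds E-cadherin, was at 8.72, 7.96 and 7.89 CPM in SW480 and 12.2, 10.4 and 14.9 in SW620, without overlap but with an adjusted p of 0.0594 (edgeR). A share of 7.6% of its exon bases lies under other genes, HASPIN on the opposite strand among them, so its counts are uncertain too. ITGAX was at 1.03 ± 0.288 and 0.766 ± 0.536 CPM (SD, n = 3; adjusted p = 0.599).

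LAMA3 and LAMB3, 2 chains of laminin-332, did not move together between the lines. LAMA3 (chromosome 18, 23689443 to 23956222) was at 132, 118 and 132 CPM in SW480 and 44.3, 66.5 and 57.2 in SW620, a log2 fold change of -1.22 ± 0.18 (edgeR, adjusted p = 0.00111). LAMB3 (chromosome 1, 209614870 to 209652466) was at 93.5, 87.2 and 108 CPM in SW480 and 95.9, 77.3 and 129 in SW620, with overlapping groups, a log2 fold change of 0.03 ± 0.20 and an adjusted p of 0.924 (edgeR). LAMA3 thus lay lower in every SW620 library than in any SW480 library, and LAMB3 did not.

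The laminin-511 chains also split. LAMA5 (chromosome 20, 62307955 to 62367312) was at 912, 939 and 872 CPM in SW480 and 246, 365 and 308 in SW620, a log2 fold change of -1.60 ± 0.21 (edgeR, adjusted p = 0.000504). LAMC1, the gamma chain of most laminins, went from 151, 109.7 and 161 CPM to 76.1, 67.1 and 93.5, a log2 fold change of -0.87 ± 0.19 (edgeR, adjusted p = 0.00865). LAMB1 went the other way, from 73.2, 63.0 and 80.8 CPM to 99.3, 119.7 and 131, a log2 fold change of 0.66 ± 0.17 (edgeR, adjusted p = 0.0158). None of these 3 genes had overlapping groups. LAMB2, which takes the place of LAMB1 in laminin-521, fell from 173, 176 and 185 CPM to 62.0, 78.0 and 85.3, a log2 fold change of -1.28 ± 0.17 (edgeR, adjusted p = 0.000511). The beta chain with the greatest share therefore changed from LAMB2 in SW480 to LAMB3 in SW620, where LAMB2 came behind LAMB1 as well.

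Both other laminin chains that rose are low. LAMC3 was at 1.04, 3.59 and 2.42 CPM in SW480 and 8.39, 10.3 and 6.21 in SW620, a log2 fold change of 1.79 ± 0.44 (edgeR, adjusted p = 0.0131). LAMA2, the alpha chain of muscle and nerve basement membrane, was at 1.98, 3.76 and 2.37 CPM in SW480 and 7.66, 8.62 and 3.66 in SW620. Its groups overlapped, with SW620 replicate 3 below the highest SW480 library, and its log2 fold change was 1.27 ± 0.41 (edgeR, adjusted p = 0.0433). LAMA2 lost its call in 9 of 19 alternative analyses.

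**Figure D3:**
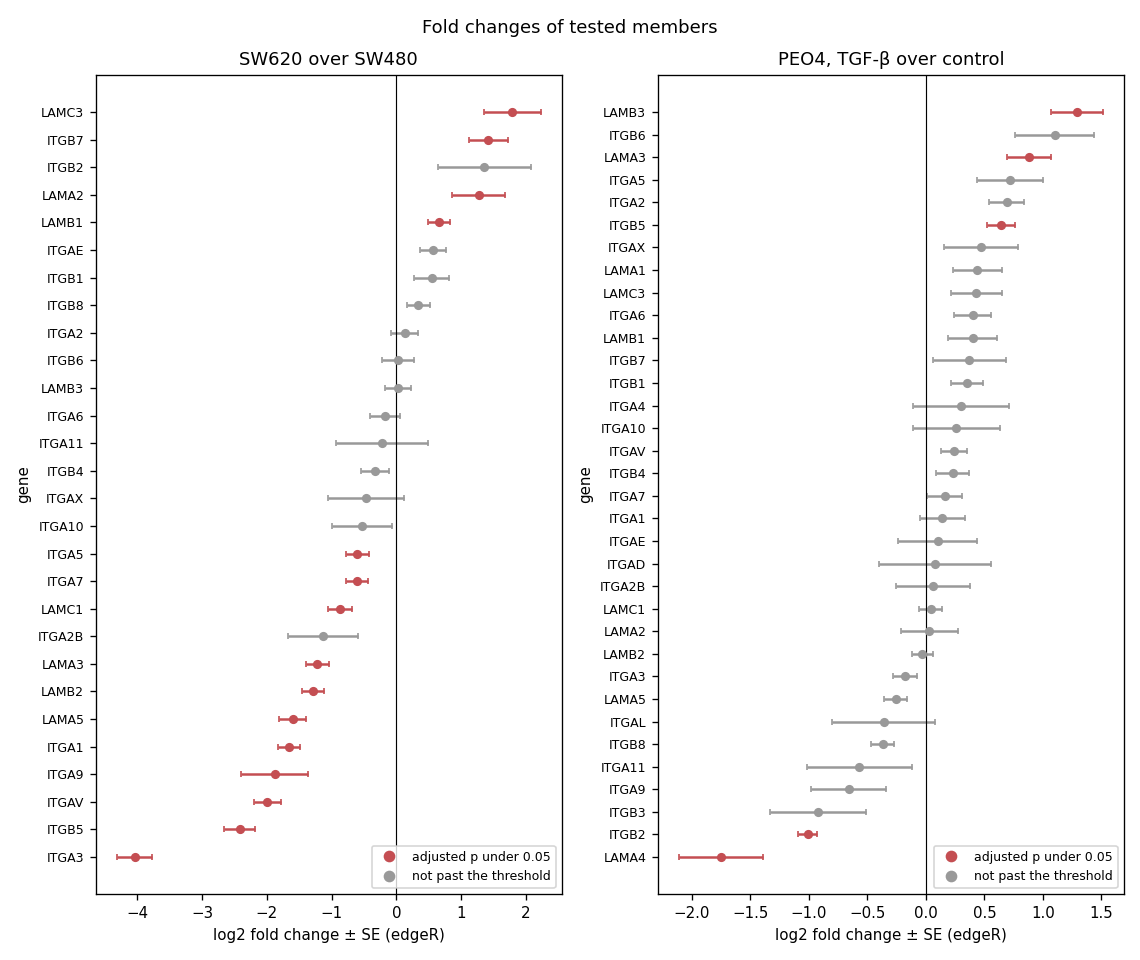
Log2 fold change ± SE (edgeR) of tested members, SW620 over SW480 on the left and PEO4 with TGF-β over control on the right, with red points past an adjusted p of 0.05. The left panel runs from ITGA3 at -4.04 to LAMC3 at 1.79, and the right from LAMA4 at -1.75 to LAMB3 at 1.29.

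Replicates of SW480 and SW620 did not overlap for 17 of 29 members, against 43.6% of all genes tested. Of the 16 called members 6 passed in all 19 alternative analyses, ITGA1, ITGA3, ITGAV, ITGB5 and LAMA5 among them. Another 4, ITGB7, LAMA3, LAMB2 and LAMC3, missed it only in the test against a 2-fold change. The other 6 lost the call without certain single libraries. ITGA7 lost it without any one of the SW480 libraries or SW620 replicate 1 or 2, and LAMB1 without any one of the SW480 libraries. ITGA5 and LAMA2 lost it without SW480 replicate 1 or 3 or SW620 replicate 1 or 2. LAMC1 lost it without SW480 replicate 1 or 3 or SW620 replicate 1, and ITGA9 without SW480 replicate 1 or 2 or SW620 replicate 1. ITGA5, ITGA7 and LAMC1 also lost it under a correction for GC content. Without SW620 replicate 3 the count was 16, as it was with the PEO4-like excess subtracted, and without SW480 replicate 1 it was 10. In the authors' deposited table, 30 members are listed and 17 have an adjusted p under 0.05, which are the 16 called here and ITGAE. Over all genes, 7071 of the 20639 with an adjusted p in the authors' deposited table are under 0.05.

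In PEO4, 35 of the 38 members passed the filter and 6 had an adjusted p under 0.05 (edgeR) with TGF-β. The share was 17.1%, against 2.26% of all 19064 genes tested. The 4 that rose (11.4%, against 1.27% of all genes) include LAMA3, LAMB3 and ITGB5, and ITGB2 and LAMA4 fell (5.71%, against 0.991%). The median log2 fold change was 0.228 over the tested members and -0.0161 over all genes. At an unadjusted p under 0.05 the count was 13 of 35, against 16.7% of all genes, and replicates did not overlap for 14 of 35, against 21.3%. No alpha integrin passed edgeR's adjusted threshold among 16 tested. Of these, ITGA2, ITGA5 and ITGA6 had an unadjusted p under 0.05, and ITGA2 passed with DESeq2. ITGA8, ITGAM and LAMB4 were not tested.

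LAMA3 and LAMB3, chains of the laminin that anchors hemidesmosomes, rose with TGF-β. LAMB3 was at 137, 76.3 and 91.1 CPM in control libraries and 316, 216 and 214 with TGF-β, a log2 fold change of 1.29 ± 0.22 (edgeR, adjusted p = 0.0216). LAMA3 was at 343, 199.8 and 217 CPM in control and 525, 417 and 465 with TGF-β, a log2 fold change of 0.88 ± 0.19 (edgeR, adjusted p = 0.0493). For both chains all treated libraries lay above all control libraries, and replicate 1 was the highest library within each group. Control replicate 1 was the highest control for 22 of the 35 tested members and TGF-β replicate 1 the highest treated library for 17. In the SW comparison, SW620 replicate 3 was the highest SW620 library for 18 of 29 tested members. The same was not counted over all genes, so these counts may not be particular to the members.

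These calls changed when libraries were left out. LAMA3, ITGB5 and LAMA4 lost theirs without any one library other than control replicate 1, and LAMB3 without any one other than control replicate 1 and TGF-β replicate 3. LAMA3 also lost it under the correction for GC content and with at least 10 counts required in every library. Leaving out control replicate 2, control replicate 3, TGF-β replicate 1 or TGF-β replicate 2 left 1 called member, ITGB2, and leaving out TGF-β replicate 3 left 2, ITGB2 and LAMB3. Leaving out control replicate 1 gave 11.

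Other laminin chains of PEO4 did not follow. LAMA5 was at 2243, 2471 and 2571 CPM in control and 1899, 2185 and 2056 with TGF-β, lower in all treated libraries but not past the threshold (log2 fold change -0.26 ± 0.10, edgeR, adjusted p = 0.230). LAMC1 was at 326 ± 29.3 and 338 ± 26.0 CPM and LAMB2 at 210 ± 24.6 and 208 ± 1.59 (SD, n = 3), with adjusted p of 0.866 and 0.918 (edgeR). LAMB1, at 99.2 ± 33.0 and 132 ± 22.6 CPM, did not pass the test either (adjusted p = 0.391). LAMA4, a chain of vascular laminins, fell from 3.04, 4.41 and 7.51 CPM to 1.21, 1.82 and 1.44. Its log2 fold change was -1.75 ± 0.36 (edgeR, adjusted p = 0.0430), at 54 to 145 counts in control libraries and 22 to 34 with TGF-β. LAMA1, LAMA2 and LAMC3 had adjusted p of 0.337 to 0.964 (edgeR).

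**Figure D4:**
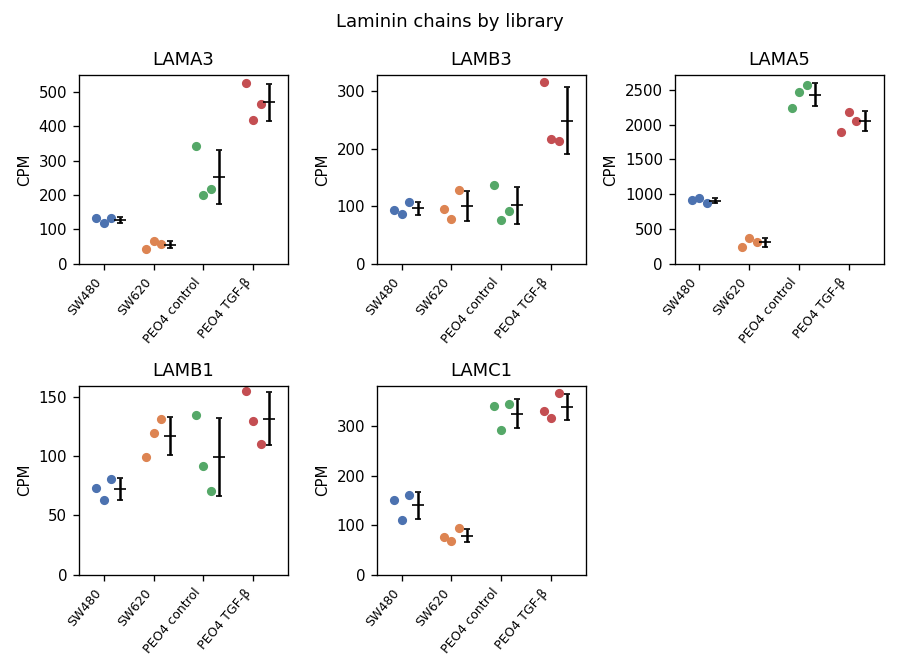
CPM in each library (points) with the mean ± SD of 3 libraries (black) for 5 laminin chains in the 4 groups, each panel with its own axis from 0. LAMA3 and LAMB3 lie higher with TGF-β in every PEO4 library, and LAMA3 and LAMA5 lie lower in every SW620 library than in SW480.

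Promoter sequences of LAMA3 and LAMB3 are shown because LAMA3 and LAMB3 were the 2 members with a match to the AP-1 motif TGANTCA, which JUN and FOS dimers bind. RefSeq promoter windows (GRCh38.p14) were found for 26 of the 38 members, 33 windows in all, and ITGA3 and ITGB2 have none there. In the 250 bases before the start, both strands searched, TGANTCA was found in 2 of the 33 windows and in 6.57% of all 35116 windows. The short SMAD motif CAGAC, searched on both strands and neither containing nor contained in the other motif, was found in 13 of 33 windows, from 12 genes with LAMA3 and LAMA4 among them, and in 38.0% of all windows. Each AP-1 match is printed with its flanks, the motif in capitals and positions counted from the start.
LAMA3 match at -125 to -119, chr18:23872885-23872911, plus strand: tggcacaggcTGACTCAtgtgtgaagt
LAMA3 match at -69 to -63, chr18:23872941-23872967, plus strand: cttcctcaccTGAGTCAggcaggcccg
LAMB3 match at -67 to -61, chr1:209651425-209651451, minus strand: tcagccactcTGACTCAttcactttgg
Both the LAMA3 and the LAMB3 window with a match belong to starts inside the genes as annotated in GENCODE 29, and the other 2 of the 3 LAMB3 windows hold no match. These matches are letters in a window, and binding was not measured.

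ITGB2 (chromosome 21, 44885953 to 44931989, minus strand) had the smallest adjusted p of the members in the PEO4 comparison. It encodes the beta 2 subunit of leukocyte integrins, and PEO4 is an epithelial cancer line. Control libraries were at 135, 133 and 148 CPM and treated libraries at 71.8, 67.5 and 69.5, with little spread and no overlap. The log2 fold change was -1.01 ± 0.08 (edgeR, adjusted p = 0.00112), 2.01-fold lower with TGF-β, and it stayed past the threshold without any one library. The call was lost in a model of all 12 libraries. ITGB2-AS1, an antisense gene, shares 4.5% of the exon bases of ITGB2 and went from 300, 303 and 468 counts in control to 144, 150 and 217 with TGF-β, so with strand use not given the counts of both genes are uncertain.

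The alpha partners of beta 2 were low in PEO4. ITGAL, ITGAM, ITGAX and ITGAD had group means of 0.249 to 1.24 CPM, and none passed the test or, for ITGAM, the filter. Of 7 leukocyte markers, 6 exceeded 3 counts in a library of each PEO4 group, and 1 was at 0 in all 6 libraries. Their summed level was 9.01 to 11 CPM in control and 7.42 to 10.4 with TGF-β. Whether leukocytes contribute to the ITGB2 counts was not tested. PTPRC was at 2.57 ± 0.617 and 2.40 ± 0.176 CPM (SD, n = 3).

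ITGB5 rose from 95.8, 76.5 and 69.3 CPM to 119, 136 and 125 with TGF-β, a log2 fold change of 0.64 ± 0.12 (edgeR, adjusted p = 0.0287), with no overlap. Its partner ITGAV was at 149.7 ± 19.2 and 178 ± 16.1 CPM (SD, n = 3) and did not pass (log2 fold change 0.24 ± 0.11, adjusted p = 0.314). ITGB6 was at 19.3, 9.42 and 7.82 CPM in control and 37.2, 23.0 and 18.8 with TGF-β. Its log2 fold change of 1.10 ± 0.34 came with an adjusted p of 0.156 (edgeR), and the lowest treated library lay below the highest control. ITGB8 was at 403, 391 and 326 CPM in control and 307, 296 and 271 with TGF-β, without overlap but with an adjusted p of 0.105 (log2 fold change -0.37 ± 0.10, edgeR). ITGB3 was at 1.06 ± 0.355 and 0.557 ± 0.118 CPM (SD, n = 3; adjusted p = 0.302). AC092153.1 overlaps 20.6% of the exon bases of ITGB6, and AC068234.1 overlaps 51.6% of those of ITGB3. The annotation used for counting is not given in the sources used here, so the counts of both members are uncertain.

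ITGA2, a collagen receptor that pairs with beta 1, missed the threshold by little. It was at 66.5, 44.7 and 49.7 CPM in control and 96.7, 75.2 and 90.2 with TGF-β, with no overlap, a log2 fold change of 0.69 ± 0.15 and an adjusted p of 0.0508 (edgeR). It was past the threshold in 9 of 18 alternative analyses. ITGA3 was at 2507, 2174 and 2080.2 CPM in control and 2020.0, 2020.3 and 1981 with TGF-β (log2 fold change -0.18 ± 0.10, edgeR, adjusted p = 0.396). ITGA5 was at 12.2 ± 3.71 and 20.2 ± 7.43 CPM, ITGA6 at 32.2 ± 7.72 and 42.7 ± 5.05, ITGB1 at 269 ± 59.3 and 344 ± 25.3 and ITGB4 at 548 ± 72.8 and 646 ± 108 (SD, n = 3). Their adjusted p ran from 0.240 to 0.448 (edgeR). The other 9 tested integrins, ITGA1, ITGA2B, ITGA4, ITGA7, ITGA9, ITGA10, ITGA11, ITGAE and ITGB7, had group means of 1.12 to 17.4 CPM and adjusted p of 0.347 to 0.952 (edgeR).

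**Figure D5:**
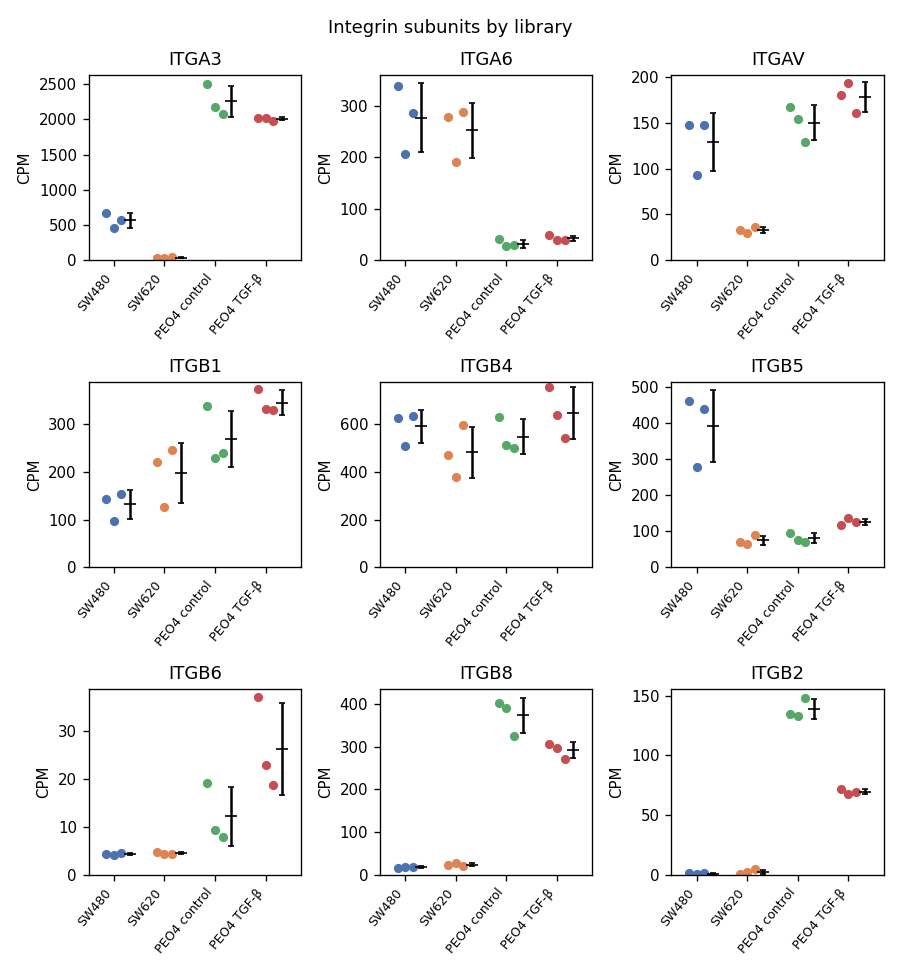
CPM in each library (points) with the mean ± SD of 3 libraries (black) for 9 integrin subunits in the 4 groups, each panel with its own axis from 0. ITGA3, ITGAV and ITGB5 lie lower in every SW620 library than in SW480, and ITGB2 falls from 133 to 148 CPM in PEO4 control to 67.5 to 71.8 with TGF-β.

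In the authors' deposited table for PEO4, 34 members are listed and 8 have an adjusted p under 0.05, which are the 6 called here with ITGA2 higher and ITGB8 lower. Over all genes, 964 of the 17027 with an adjusted p in the authors' deposited table for PEO4 are under 0.05.

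Genes that work with these receptors were described from 3 lists. Of 35 adaptor and signalling genes behind integrins, 7 rose and 14 fell in SW620 (60% called, against 30.5% of all genes; median log2 fold change -0.36). TNS3, a tensin that links integrin tails to actin, rose from 109 ± 11.4 to 818 ± 85.0 CPM (SD, n = 3; log2 fold change 2.88 ± 0.19, edgeR, adjusted p = 1.08e-05). KANK1, a talin-binding protein, rose from 14.0 ± 0.618 to 112 ± 24.8 CPM (log2 fold change 2.97 ± 0.19, adjusted p = 1.01e-05). KANK4 of the same family went the other way, from 19.4 ± 3.78 to 0.0488 ± 0.0491 CPM (adjusted p = 4.52e-06), which is under the floor in SW620. NEDD9, a docking protein of focal adhesions, fell with a log2 fold change of -2.69 ± 0.19, and LIMS2, a partner of integrin-linked kinase, with -2.63 ± 0.26. PARVG rose from 0.141 ± 0.0366 to 1.55 ± 0.685 CPM (SD, n = 3; log2 fold change 3.38 ± 0.58, edgeR, adjusted p = 0.0021). Its SW480 mean lies within the floor of 0.136 to 0.206 CPM. With TGF-β in PEO4, 1 of 34 tested genes of this list passed (2.94%, against 2.26%), TNS3, which fell from 930.0 ± 103 to 604 ± 86.8 CPM (log2 fold change -0.64 ± 0.12, edgeR, adjusted p = 0.0365) and lost its call without any one library other than control replicate 1.

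Of 22 tested laminin partners and other laminin receptors, 3 rose and 11 fell in SW620 (63.6% called, against 30.5% of all genes; median log2 fold change -0.89). SGCE, a sarcoglycan, rose from 0.495 ± 0.214 to 14.6 ± 3.62 CPM (SD, n = 3; log2 fold change 4.84 ± 0.37, edgeR, adjusted p = 2.19e-05). The collagen IV genes COL4A1, COL4A5 and COL4A4, which build the network laminins attach to, fell from low levels with log2 fold changes of -2.61, -2.26 and -1.52. SDC4, a syndecan, fell from 145 ± 50.8 to 30.2 ± 10.2 CPM (log2 fold change -2.29 ± 0.32, adjusted p = 0.000662), and AGRN, agrin, from 562 ± 117 to 165 ± 10.6 CPM (log2 fold change -1.80 ± 0.20, adjusted p = 0.000203). In PEO4 2 of 22 passed (9.09%, against 2.26%). COL7A1, the anchoring fibril collagen that binds laminin-332, rose from 1.66 ± 0.556 to 18.7 ± 0.591 CPM (log2 fold change 3.46 ± 0.21, edgeR, adjusted p = 0.000485). BCAM, a receptor for the laminin alpha 5 chain, fell from 1993 ± 256 to 1074 ± 186 CPM (log2 fold change -0.90 ± 0.15, adjusted p = 0.0176), and lost its call without control replicate 2 or TGF-β replicate 1. Between the SW lines COL4A1 and COL4A5 lost theirs without SW620 replicate 1, COL4A5 also without SW480 replicate 3, and COL4A4 without any one library other than SW620 replicate 1.

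Of 22 tested integrin ligands and latent TGF-β genes, 2 rose and 12 fell in SW620 (63.6% called, against 30.5% of all genes; median log2 fold change -0.82). NPNT, nephronectin, a ligand of alpha 8 beta 1, went from 3.89 ± 0.241 to 0.0488 ± 0.0491 CPM (SD, n = 3; edgeR, adjusted p = 9.53e-05), under the floor in SW620. TGFB2 fell from 13.0 ± 2.91 to 0.405 ± 0.0277 CPM. The latent TGF-β binding proteins LTBP2 and LTBP1 fell with log2 fold changes of -4.26 ± 0.21 and -3.88 ± 0.41, and ICAM1, a ligand of beta 2 integrins, with -2.97 ± 0.26. TNC, tenascin-C, a ligand of alpha 9 and alpha V integrins, rose from 5.28 ± 1.55 to 47.9 ± 10.5 CPM (log2 fold change 3.15 ± 0.25, edgeR, adjusted p = 3.06e-05).

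With TGF-β in PEO4 8 of 22 genes of this list passed and all 8 rose (36.4%, against 2.26% of all genes called and 1.27% called higher; median log2 fold change 0.51). FN1, fibronectin, was at 147 ± 120.5 CPM in control and 1029.7 ± 537 with TGF-β (SD, n = 3), a log2 fold change of 2.81 ± 0.55 with an adjusted p of 0.0365 (edgeR). COL3A1 rose from 2.68 ± 0.809 to 18.1 ± 6.02 CPM (log2 fold change 2.75 ± 0.29) and LTBP2 from 32.9 ± 13.4 to 222 ± 14.5 CPM (2.74 ± 0.23). TGFB2 was at 0.276 ± 0.0852 and 1.75 ± 0.323 CPM. THBS1, thrombospondin-1, rose from 126 ± 54.2 to 681 ± 159.9 CPM (2.43 ± 0.30) and TGFBI, a secreted integrin ligand named for its induction by TGF-β, from 3.96 ± 0.875 to 20.1 ± 6.18 CPM (2.33 ± 0.25). FBN1 and LTBP1 also passed. LTBP1, FBN1, TGFB2 and THBS1 lost their calls without control replicate 2, LTBP1 also without TGF-β replicate 1 or 2 and TGFB2 also without TGF-β replicate 1 or 3. FN1 lost its call without control replicate 2, control replicate 3, TGF-β replicate 1 or TGF-β replicate 2.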

How the data were processed

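Raw counts for 57500 gene IDs, as deposited by the authors, cover 12 libraries of 14.5 to 22.0 times 1000000 counts. Per the submitters' processing notes, Trimmomatic 0.36, STAR 2.5.2b, featureCounts, Subread 1.5.2, DESeq2 and GRCh38 were used. The annotation and the strand setting are not given in the sources used here. In the authors' deposited comparison tables the signal of a library is its count over a size factor and was not used. Their deposited log2 fold changes and adjusted p-values, named so per the file headers, served only to compare calls.

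The 6 libraries of a comparison were tested by themselves in edgeR 4.0.16 (R 4.3.3) with filterByExpr, TMM factors, the two-sided quasi-likelihood test, Benjamini-Hochberg adjustment over all genes tested and a threshold of 0.05. CPM values use TMM factors over all 12 libraries. The SE is the log2 fold change over the square root of F. Exon lengths, positions and overlaps come from GENCODE 29, where 56898 IDs were found. Scripts were tested on simulated data. Samples were grouped by the labels as biological replicates. An exact permutation test of 3 against 3 cannot go below 0.1, so single genes rest on the model. Alternatives were DESeq2 1.42.0, limma-voom (limma 3.58.1), other scalings and filters, all 12 libraries in one model, the replicate number as a block, a GC correction, a test against a 2-fold change, leaving out each library and subtracting the PEO4-like excess. PEO4-like genes had at least 20 CPM in PEO4 and at most 10 counts summed over the other 5 SW libraries.

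The members and lists were chosen with earlier results of these data known. Full values are given for members with an adjusted p under 0.05 and at least 1 CPM in the higher group, and up to 6 genes per list and comparison past the threshold are named by size of change. Some members that missed the threshold were given in full after their values were seen. The counts cover all members and markers, and the values of 1 member and 1 marker are not reported here.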

Additional observations from a re-analysis of the deposited data

How the results depend on the processing

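Of the 16 members called between SW480 and SW620, the test against a 2-fold change kept 6, and leaving out each library in turn gave 10 to 16. The counts over all genes moved from 6385 to 2504 and 4253 to 7419. The 6 members called in PEO4 became 13 with no filter, 1 in the model of all 12 libraries, 0 in the test against a 2-fold change and 1 to 11 over the libraries left out. The counts over all genes moved with them, from 431 to 1457, 165, 9 and 72 to 1080. No change of sign of a called member occurred under any alternative run. Single members lost a call in 43 SW and 38 PEO4 instances and gained one in 14 and 35. The GC correction moved the median log2 fold change of all genes between the SW lines from 0.033 to 0.139, so changes under it are relative to that shift.

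Deviations from the group means do not settle whether the replicate numbers pair the samples. Same-numbered libraries correlated at 0.0159, 0.67 and 0.567 (SW) and 0.291, -0.14 and 0.481 (PEO4). Libraries with different numbers correlated at -0.63 to 0.267 (SW) and -0.486 to 0.239 (PEO4), and not every library correlated best with its own number. With the replicate number as a block, PEO4 had 15 members called, and 14 with the GC correction and block, while the SW count was 20. Over all genes the block called 2102 of 19064 in PEO4 (11%), 1815 of 18974 with the GC correction, and 10667 of 20941 between the SW lines (50.9%). With the block, the adaptor list in PEO4 had 13 called genes, the laminin partners 5 and the ligands 14, and with the GC correction and block 10 and 4 for the first and second.

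The adaptor list in PEO4 had 1 called gene and gave 4 with DESeq2, 2 with limma-voom, 2 with upper quartile scaling, 3 with total-count scaling, 9 with no filter, 0 in the model of all 12 libraries and 0 to 5 over the libraries left out. The laminin partners in PEO4 had 2 and gave 4 with DESeq2, 4 with no filter, 1 in the model of all 12 libraries and 1 to 4 over the libraries left out. The ligands in PEO4 had 8 and gave 3 to 11 over the libraries left out. The tested genes were 34 or 35 of the adaptor list, 18 to 24 laminin partners and 22 ligands. The called share of all genes in PEO4 moved as well. It was 2.26% in the main fit, 5.74% with DESeq2, 2.27% with limma-voom, 2.54% with upper quartile scaling and 2.62% with total-count scaling. With no filter it was 3.82%, in the model of all 12 libraries 0.703%, and over the libraries left out 0.366% to 5.38%. In the test against a 2-fold change the adaptor list, the laminin partners and the ligands had 10, 3 and 7 called genes between the SW lines and 0, 1 and 1 in PEO4. The laminin partners between the SW lines gave 8 to 14 over the libraries left out. The test against a 2-fold change asks for a larger effect, and leaving out a library leaves fewer samples; the cause of the other changes was not tested. With 3 libraries a group, members under about 1 CPM could not be judged at this depth.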
